A study of Mus musculus with 12 samples.

Results

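The genes described here are the 37 genes of the mouse mitochondrial genome: every gene whose chromosome is MT in the input count files, out of 55416 annotated genes. They comprise 2 ribosomal RNAs (rRNAs), 13 messenger RNAs (mRNAs) and 22 transfer RNAs (tRNAs). The RNA came from whole ovaries of mouse fetuses at embryonic day E16.5, with 5 pairs of ovaries pooled per sample. One group was Fmr1 knockout (KO) and the other wild type (WT), and the labels give both the strain B6.129P2-Fmr1tm1Cgr/J. Fmr1 encodes FMRP, an RNA-binding protein. Each group had 3 input libraries, made from part of the ovary homogenate without antibody. The labels number the samples as biological replicates and do not say which litters or dams the ovaries came from, so a p-value here reflects the variation from pool to pool and no more. The series also holds a table of FMRP immunoprecipitation ratios, in which 0 of the 37 genes had a row among 14447 rows.

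Mitochondrial DNA is a small circle transcribed from both strands into long precursors. Most of its rRNAs and mRNAs are separated by tRNA genes, and the excision of those tRNAs releases the RNAs on either side. The rRNAs form the mitochondrial ribosome, the tRNAs decode the mRNAs, and the mRNAs encode core subunits of the respiratory chain and of ATP synthase. Oocytes are known for accumulating mitochondria as they grow, and offspring inherit mitochondrial DNA from them.

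The input libraries held 18880238 to 25707718 counted reads. The targeted gene was lower in all KO libraries. Fmr1 had 1644, 2968 and 1763 reads in KO and 5177, 4880 and 4664 in WT, a log2 change of -1.08 (SE 0.11) with an adjusted p of 0.00775 (quasi-likelihood test of edgeR, p-values adjusted by Benjamini-Hochberg over all genes). The gene with the highest count, ENSMUSG00000119584, took 8.03% to 9.75% of a library.

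The 37 genes together took 548706, 661663 and 473635 reads in KO and 706575, 589435 and 591693 reads in WT. Their share of counted reads averaged 2.71% ± 0.18 in the KO libraries and 2.70% ± 0.099 in the WT libraries (SD, n = 3 each). In whole ovaries, fewer cells of a type and less RNA per cell cannot be told apart. Within them, mRNA took the most reads in every library, rRNA came second, and tRNA took 0.0496% to 0.0595%. The mRNA genes span 11403 bases of annotation, the rRNA genes 2537 and the tRNA genes 1501. Per base, rRNA stood at 1.003 to 1.258 times the mRNA level over the 6 libraries. This direction turned when the reads of the chromosome 1 genes described below were added to the mRNAs, with rRNA then at 0.769 to 0.957 times the mRNA level per base. The tRNA genes stood far lower: the mRNA genes had 174 to 207 times as many reads per base, or 229 to 272.5 times with those reads added. These are balances of counted reads and not of RNA amounts. How far the making of the libraries bears on them was not tested.

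Reads were assigned to genes without strand and, by the default of the counting program, a read touching more than 1 gene was assigned to none. Mitochondrial genes lie end to end or overlap, so this default bears on all of them and on short genes more. The read length is not given in the sources used here, and the part of this default in the counts was not tested.

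A block of 7 genes on chromosome 1 resembled a stretch of the mitochondrial genome. Pieces of mitochondrial DNA inserted into nuclear chromosomes are common in mammals, and reads from near-identical pieces cannot be told apart. A search covered the other single-exon genes longer than 150 bases, so copies of tRNA genes and copies of a single gene were outside it. It sought pairs on the same strand with the lengths (within 4 bases) and spacing (within 3 bases) of mitochondrial genes, and found 10 pairs. All of them lay among 5 genes of chromosome 1, between positions 24651488 and 24654646 on the minus strand. Placed over the mitochondrial genome from these, the block with the genes on either side ran from inside COX1 to inside ND4, between 24650616 and 24655278. It held counterparts of COX2, ATP6, COX3, ND3 and ND4L at 98.99% to 99.87% of their length, 31.8% of COX1 and 63.6% of ND4. The match is one of length and spacing, since no sequence was compared. The counting had no option set for reads with several placements. How the alignment step placed and marked such reads is not given in the sources used here, so whether the 2 locations shared reads was not tested.

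The block took 136609, 163200 and 116624 reads in KO and 176641, 146401 and 148167 in WT. Cytochrome c oxidase subunit COX2 (ENSMUSG00000064354, MT, 7013 to 7696) had 30028, 35908 and 25375 reads in KO and 38605, 31291 and 31432 in WT. Its counterpart ENSMUSG00000102070 had 29271, 35891 and 25397 in KO and 38657, 31529 and 31932 in WT. The 2 locations were thus close to equal in each library, with 49.6% to 50.6% of their joint reads on the mitochondrial gene. The same held for COX3 (49.7% to 50.3%), ND3 (50.4% to 51.9%) and ND4L (48.6% to 50.3%). ATP6 had 41.3% to 41.8% of the joint reads. Its first 43 bases overlap ATP8 on the mitochondrial genome, where reads touching both genes were counted for neither. The block has no annotated counterpart of ATP8. The part of that overlap was not tested. The levels of these 7 genes are therefore uncertain. ATP8, TrnS1, TrnD, TrnK, TrnG and TrnR also lie within the stretch that the block spans. Reads placed on unannotated parts of the block would be counted for no gene, and how far this bears on their counts was not tested. Below, values are those of the mitochondrial genes unless the block is named. No annotated counterpart in the block was found for the rRNAs, the tRNAs or any other mRNA. Only annotated single-exon genes on the same strand were looked at, so a copy without annotation could not be found.

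**Figure D1:**
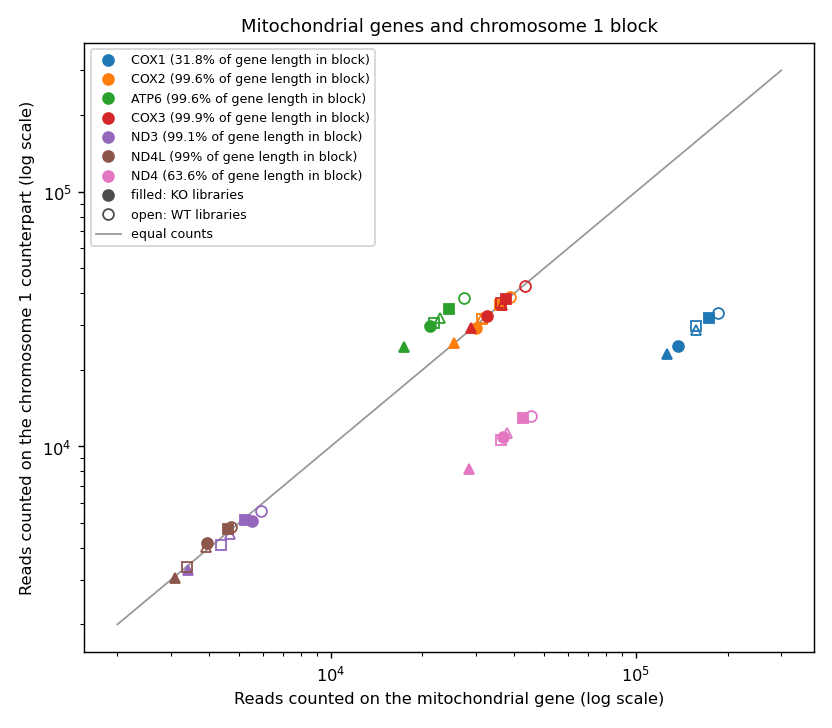
Reads counted on 7 mitochondrial genes (x axis, log scale) against reads counted on their chromosome 1 counterparts (y axis, log scale), 1 point per gene and library; circles, squares and triangles are replicates 1, 2 and 3. COX2, COX3, ND3 and ND4L lie along the line of equal counts in all 6 libraries, ATP6 lies above it, and COX1 and ND4, whose counterparts cover 31.8% and 63.6% of them, lie below it.

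The rRNAs were among the steadiest members. The small-subunit rRNA mt-Rnr1 (ENSMUSG00000064337, MT, 70 to 1024, plus strand) had 38618, 49865 and 39679 reads in KO and 52114, 47405 and 44180 in WT. The large-subunit rRNA mt-Rnr2 (ENSMUSG00000064339, MT, 1094 to 2675, plus strand) had 61406, 79931 and 63857 in KO and 83515, 76988 and 74952 in WT. Scaled to library size (CPM, reads per 1000000 counted reads after TMM normalization), mt-Rnr1 stood at 2061 ± 46.1 in KO and 2073 ± 19.96 in WT. On the same scale mt-Rnr2 stood at 3300.0 ± 93.9 in KO and 3403 ± 135 in WT (SD over 3 libraries). The groups overlapped for both. Coefficients of variation between replicates were 0.963% to 3.97%, against 3.86% to 23.9% for the 13 mRNAs.

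Both rRNAs lay at nearly the same level per base. The ratio of mt-Rnr2 to mt-Rnr1 reads per base was 0.960, 0.968 and 0.972 in KO and 0.967, 0.980 and 1.02 in WT. WT replicate 3 was the one library with more large-subunit reads per base. The groups overlapped, with a difference of -0.024 between KO and WT (exact permutation p = 0.3, two-sided; adjusted p = 0.9 over 6 composition measures). Without WT replicate 3 the difference was -0.0075.

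Among rRNA and mRNA genes, levels per base were compared as reads per kb of gene per 1000000 counted reads (RPKM), averaged over the 6 libraries. COX1, the catalytic subunit of cytochrome c oxidase (ENSMUSG00000064351, MT, 5328 to 6872), ranked first in all 6. It had 137805, 174112 and 126735 reads in KO and 185780, 157350 and 158125 in WT, or 4605 ± 168 RPKM (SD, n = 6 libraries of both groups). It alone took 25.1% to 26.8% of mitochondrial reads and ranked 5 among all annotated genes by summed count.

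Below it stood a group of 6 genes at 1958 to 2159 RPKM: mt-Rnr1, COX2, mt-Rnr2, CYTB, COX3 and ND1. They took ranks 2 to 7 and swapped places between libraries, so their order was not fixed beyond replicate spread. CYTB, the mitochondrial subunit of the cytochrome bc1 complex (ENSMUSG00000064370, MT, 14145 to 15288), had 50770, 56952 and 41351 reads in KO and 63864, 51718 and 52256 in WT. The next pairs were ND6 and ATP6 at ranks 8 and 9, then ND5 and ND4 at 10 and 11, with 1600 and 1500 RPKM in the higher pair and 1251 and 1250.04 in the lower. Within each pair the order changed between libraries. ND2 ranked 12 in all 6 libraries, at 857 ± 99.5.

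The lowest mRNAs per base were ND3, ND4L and ATP8. ND3, a membrane subunit of complex I (the NADH dehydrogenase; ENSMUSG00000064360, MT, 9459 to 9806), had 5523, 5255 and 3396 reads in KO and 5899, 4385 and 4680 in WT. ND4L (ENSMUSG00000065947, MT, 9877 to 10173), also of complex I, had 3938, 4616 and 3083 in KO and 4710, 3370 and 3904 in WT. ATP8, a small subunit of ATP synthase (ENSMUSG00000064356, MT, 7766 to 7969), had 221, 249 and 207 in KO and 312, 226 and 273 in WT. ATP8 was last in every library by a wide margin, while ND3 and ND4L swapped ranks 13 and 14.

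ATP8 and ATP6 are known to be translated from 1 shared transcript, as are ND4L and ND4. Per base, ATP6 had 25.1 to 29.4 times the reads of ATP8, or 60.02 to 71.3 times with the block added. The latter range adds chromosome 1 reads to ATP6 alone. The place of ATP8 lies within the span of the block, but no gene is annotated there, so this range is not a fuller count of ATP8. ND4 had 1.98 to 2.31 times the reads of ND4L per base, or 1.27 to 1.495 times with the block added. ATP8 is 204 bases long and shares 43 of them with ATP6, while ND4L is 297 bases long and shares 7 with ND4. The part of length, overlap and missing annotation in these gaps was not tested.

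Adding the chromosome 1 counterparts altered the order of the mRNAs. COX1 stayed first, but its lead per base over COX2 went from 2.16-fold to 1.28-fold, over COX3 from 2.22-fold to 1.31-fold and over ATP6 from 3.07-fold to 1.51-fold. COX2, COX3 and ATP6 then stood at 4264, 4153 and 3607 RPKM, above both rRNAs. ND2, whose counterpart was not found, fell behind ND3 and ND4L, at rank 14 of the 15 genes in place of 12. The 3 oxidase subunits then held the first 3 ranks, and ATP8, with no annotated counterpart to add, stayed last.

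ND6 is the only mRNA gene on the minus strand (ENSMUSG00000064368, MT, 13552 to 14070) and encodes a further membrane subunit of complex I. It had 18306, 21754 and 12758 reads in KO and 21545, 18041 and 17416 in WT. It overlaps ND5 on the plus strand by 14 bases and had 1.23 to 1.34 times the reads of ND5 per base. Since reads were counted without strand, antisense RNA of either strand cannot be told apart from the annotated gene.

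By function, the 3 oxidase subunits took 46.7% ± 2.15 of mRNA reads in KO and 47.7% ± 0.75 in WT. The 7 complex I subunits took 37.5% ± 2.13 and 36.3% ± 0.67. CYTB took 11.1% ± 0.32 and 11.1% ± 0.064, and ATP6 with ATP8 took 4.72% ± 0.061 and 4.83% ± 0.080 (SD, n = 3 each). The oxidase subunits hold the larger share with 3 genes, and complex I the smaller one with 7. With the block added, the share of ATP6 with ATP8 was 8.65% ± 0.083 in KO and 8.76% ± 0.13 in WT, above that of CYTB at 8.46% ± 0.24 and 8.48% ± 0.064. Complex I then took 31.9% ± 1.99 and 30.8% ± 0.66, and the oxidase subunits 51.02% ± 2.06 and 51.999% ± 0.799 (SD over 3 libraries).

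**Figure D2:**
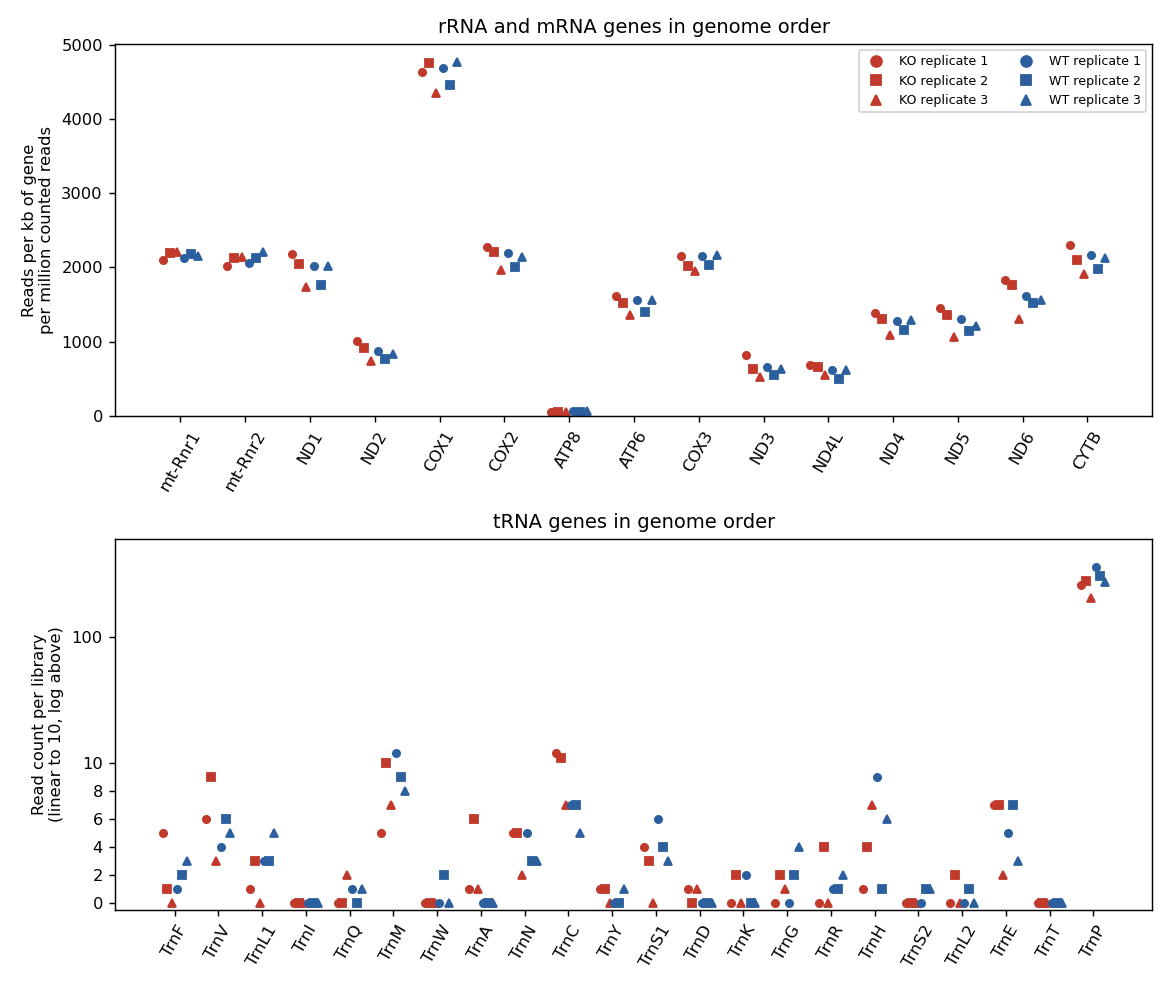
Top, reads per kb of gene per 1000000 counted reads for the 2 rRNA and 13 mRNA genes in genome order; bottom, read counts of the 22 tRNA genes in genome order, on an axis that is linear to 10 and logarithmic above. Each point is 1 library, in red for KO and blue for WT. COX1 stands above all others, ATP8 lies near 0, and TrnP is the one tRNA gene with more than 12 reads in any library.

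The tRNA genes together had 304, 349 and 235 reads in KO and 411, 351 and 323 in WT. One gene held most of them. TrnP, the proline tRNA (ENSMUSG00000064372, MT, 15356 to 15422, minus strand), had 255, 279 and 202 reads in KO and 355, 302 and 273 in WT. This was 79.9% of tRNA reads in KO replicate 2 (exact 95% interval 75.4% to 84.0%) and up to 86.4% in WT replicate 1 (82.7% to 89.5%). These intervals cover counting error only. TrnP is the last annotated gene of the file's mitochondrial genome, with no annotated gene after it, where the non-coding control region lies. It was also the only tRNA gene that passed the filter on low counts and was tested.

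The other 21 tRNA genes shared 49, 70 and 33 reads in KO and 56, 49 and 50 in WT, and none had more than 12 reads in a library. Their mean counts were all under 10. Of the 22, 18 have an annotated neighbour within 5 bases on both sides, and these 18 held 223 of the 1973 tRNA reads of all libraries (11.3%). The exceptions were TrnP, TrnF at the first base of the file's coordinates, and TrnN and TrnC, which face each other across 32 unannotated bases.

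The 3 tRNA genes that flank the rRNAs were low although their neighbours were among the highest genes. TrnF, for phenylalanine, lies before mt-Rnr1 and had 5, 1 and 0 reads in KO and 1, 2 and 3 in WT. TrnV, for valine, lies between the rRNAs and touches both. It had 6, 9 and 3 reads in KO and 4, 6 and 5 in WT. TrnL1, for leucine, lies between mt-Rnr2 and ND1, and had 1, 3 and 0 in KO and 3, 3 and 5 in WT. Together they held 60 reads over 6 libraries.

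Between ND1 and ND2 lie TrnI, TrnQ and TrnM, for isoleucine, glutamine and methionine. TrnI overlaps its neighbours on both sides and had 0 reads in all 6 libraries. TrnQ, on the minus strand, had 0, 0 and 2 in KO and 1, 0 and 1 in WT. TrnM stood out with 5, 10 and 7 in KO and 12, 9 and 8 in WT, the second highest tRNA gene by mean count. It has 2 free bases before it and none after it.

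Between ND2 and COX1 lies a run of 5 tRNA genes, the last 4 of them on the minus strand around the origin of light-strand replication. TrnW, for tryptophan, had 0 reads in the KO libraries and 0, 2 and 0 in WT. TrnA, for alanine, had 1, 6 and 1 in KO and 0 in each WT library. TrnN, for asparagine, had 5, 5 and 2 in KO and 5, 3 and 3 in WT. TrnC, for cysteine, had 12, 11 and 7 in KO and 7, 7 and 5 in WT, and came next after TrnM by mean count. TrnA and TrnC were not tested, since their counts did not pass the filter. TrnY, for tyrosine, had 1, 1 and 0 in KO and 0, 0 and 1 in WT.

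From COX1 to ND3 there are 4 tRNA genes. TrnS1, for serine, on the minus strand, had 4, 3 and 0 reads in KO and 6, 4 and 3 in WT. TrnD, for aspartate, had 1, 0 and 1 in KO and 0 in WT. TrnK, for lysine, had 0, 2 and 0 in KO and 2, 0 and 0 in WT. TrnG, for glycine, had 0, 2 and 1 in KO and 0, 2 and 4 in WT. All 4 stayed at 6 reads or fewer.

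TrnR, for arginine, lies before ND4L and had 0, 4 and 0 reads in KO and 1, 1 and 2 in WT. After ND4, TrnH, for histidine, had 1, 4 and 7 in KO and 9, 1 and 6 in WT. Its neighbours TrnS2, for serine, and TrnL2, for leucine, overlap each other by 1 base. TrnS2 had 0 in KO and 0, 1 and 1 in WT, and TrnL2 had 0, 2 and 0 in KO and 0, 1 and 0 in WT. TrnH ranged from 1 to 9 reads within WT alone.

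TrnE, for glutamate, on the minus strand beside ND6, had 7, 7 and 2 reads in KO and 5, 7 and 3 in WT. TrnT, for threonine, lies between CYTB and TrnP, touches both, and had 0 reads in all 6 libraries. A count of 0 allows up to 3 reads, or 0.117 to 0.159 CPM in these libraries. TrnT and TrnP are thus neighbours at opposite ends of the tRNA counts. By strand, the 8 minus-strand tRNA genes held 1804 of the 1973 tRNA reads, and without TrnP 138, against 169 for the 14 plus-strand genes.

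The first question between the groups was whether the balance of classes differed. The rRNA share of mitochondrial reads was 18.2%, 19.6% and 21.9% in KO and 19.2%, 21.1% and 20.1% in WT. The mRNA share was 81.7%, 80.3% and 78.1% in KO and 80.7%, 78.8% and 79.8% in WT. The KO libraries held both the highest and the lowest value of each, and WT lay between them. The difference of means was -0.24 percentage points for rRNA and 0.25 for mRNA (exact permutation p = 0.9 for each, two-sided; adjusted p = 0.9). For rRNA it was 0.59 without KO replicate 1, -1.22 without KO replicate 3, -0.72 without WT replicate 1 and 0.24 without WT replicate 2. For mRNA it was -0.59, 1.23, 0.72 and -0.23 without the same libraries. The sign thus depended on single libraries of both groups.

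The tRNA share was 0.0554%, 0.0527% and 0.0496% in KO and 0.0582%, 0.0595% and 0.0546% in WT. KO was lower on average by a margin above its own SD, at 0.0526% ± 0.0029 against 0.0574% ± 0.0026 (SD, n = 3 each), but the groups overlapped (exact permutation p = 0.2, adjusted p = 0.9). Of the 3 shares it is the one with the most counting error relative to its size, the widest exact 95% interval of 1 library being ± 0.00645 percentage points. That interval belongs to 1 library and does not measure the error of the difference of means, -0.0048. The value is mainly that of TrnP: without that gene the difference had the opposite sign, at 0.0089% in KO replicate 1, 0.011% in KO replicate 2 and 0.0070% in KO replicate 3 and 0.0079% to 0.0085% in WT.

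The minus-strand genes, ND6 and 8 tRNAs, took 3.39%, 3.33% and 2.74% of mitochondrial reads in KO and 3.10%, 3.12% and 2.99% in WT (exact permutation p = 0.8, adjusted p = 0.9). KO spread around WT here as well. The difference of 0.084 percentage points was -0.033 without KO replicate 1, -0.0065 without KO replicate 2, 0.29 without KO replicate 3 and 0.045 without WT replicate 3. The mitochondrial share of all counted reads gave the same p values. With 3 against 3 libraries no p below 0.1 can be reached, so these tests cannot pass a threshold of 0.05 and do not show that the groups are alike.

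**Figure D3:**
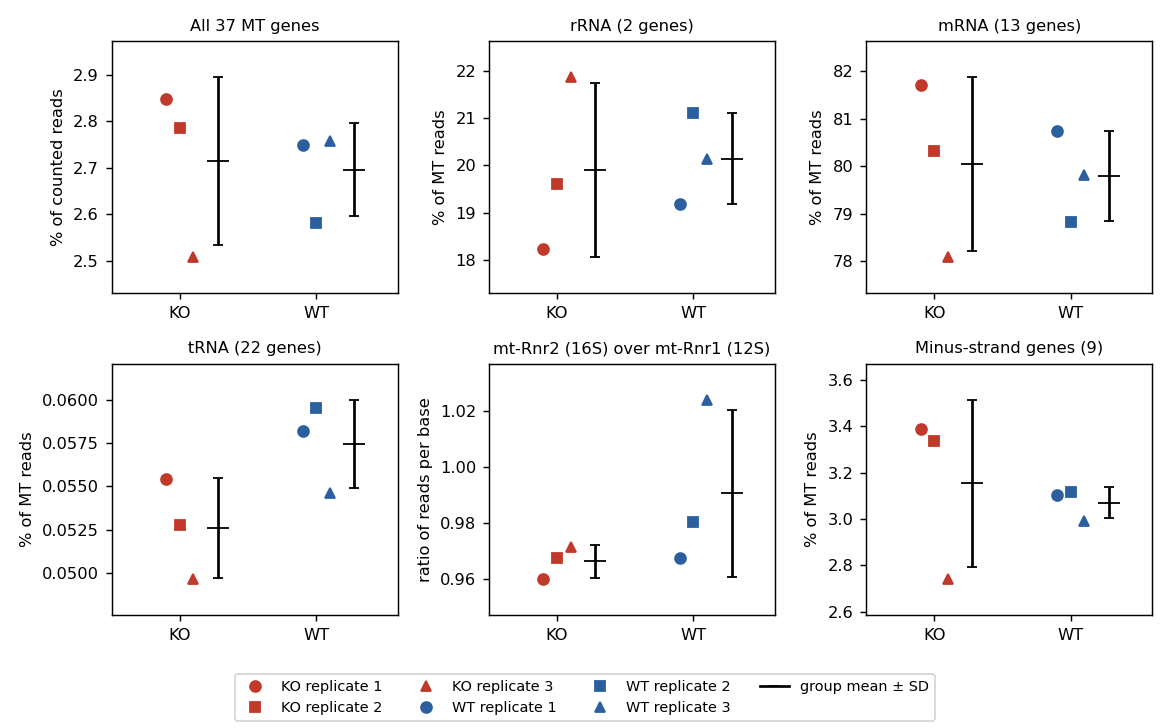
Composition of the mitochondrial reads per library, with KO in red and WT in blue; black bars are group means ± SD (n = 3). Axes do not start at 0. The groups overlap in all 6 panels, and KO replicates 1 and 3 lie at opposite ends of the rRNA and mRNA shares, with WT between them.

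The second question was which mitochondrial genes differed between KO and WT. Of the 37 genes 16 passed the filter on low counts: both rRNAs, all 13 mRNAs and TrnP. None of them passed the test (edgeR, adjusted p from 0.963 to 0.995), and at an unadjusted p under 0.05 there were also 0. Over all 23698 tested genes 0.0422% were called and 5.9% had an unadjusted p under 0.05. The KO and WT ranges overlapped for all 16, while they did not for 10.9% of all tested genes. The median log2 change of the 16 was -0.00089, beside -0.0020 over all tested genes, with 8 estimates above and 8 below 0.

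The 2 rRNAs had log2 changes of -0.0084 (mt-Rnr1, SE 0.051) and -0.044 (mt-Rnr2, SE 0.052). The 13 mRNAs ran from -0.099 (ATP8, SE 0.15) to 0.11 (ND4L, SE 0.098), with 8 above and 5 below 0. COX1 had -0.039 (SE 0.052), COX2 0.0066 (SE 0.062), CYTB -0.011 (SE 0.064) and ND6 0.040 (SE 0.12). The estimate for COX1 was below 1 standard error, as were those of COX2, CYTB and ND6.

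The smallest unadjusted p values, all above 0.05, belonged to TrnP, COX3, ND4L, ND2 and mt-Rnr2. TrnP had the estimate farthest from 0, at 11.9 ± 1.31 CPM in KO and 13.4 ± 0.56 in WT (log2 change -0.17, SE 0.14, unadjusted p = 0.230, adjusted p = 0.963, edgeR). COX3, a core subunit of cytochrome c oxidase, stood at 1594 ± 84.1 and 1672 ± 76.4 CPM (log2 change -0.069, SE 0.057). Its reads were 32436, 37542 and 28932 in KO and 43313, 36294 and 36316 in WT. ND2, a membrane subunit of complex I, had 20256, 22572 and 14530 in KO and 23277, 18267 and 18445 in WT (log2 change 0.093, SE 0.10). KO replicate 1 was the highest library for ND2 after scaling, and KO replicate 3 the lowest.

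**Figure D4:**
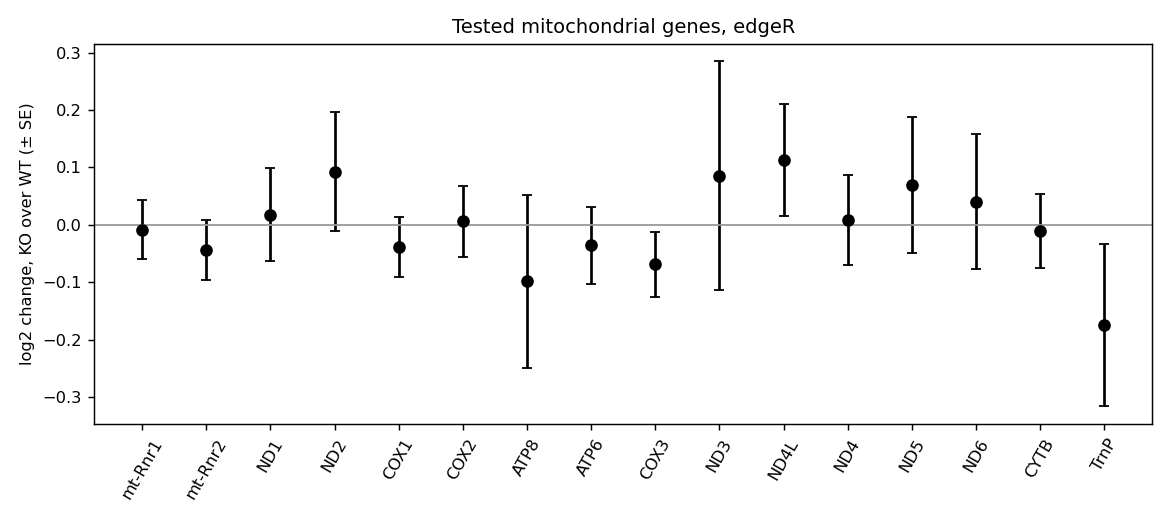
Log2 change of KO over WT (y axis) for the 16 tested mitochondrial genes in genome order, as the edgeR estimate with bars of 1 standard error. The estimates lie between -0.17 (TrnP) and 0.11 (ND4L), and none passed the test.

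The chromosome 1 counterparts, tested as genes of their own, had log2 changes of -0.053 (COX1) to 0.12 (ND4L), and none passed (adjusted p of 0.976 to 0.991 over the 7, edgeR). With their reads added to the mitochondrial genes, 0 of the 16 genes passed. Together with the block, mitochondrial genes took 3.39% ± 0.23 of counted reads in KO libraries and 3.37% ± 0.13 in WT libraries (SD, n = 3 each).

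For each of the 16 tested genes, the KO libraries differed among themselves by more than the estimated KO to WT difference. After scaling, all 13 mRNAs lay above the KO mean in KO replicate 1, by 0.029 to 0.36 on the log2 scale, and both rRNAs lay below it there. In KO replicate 3, 12 of the 13 mRNAs lay below the KO mean, by up to 0.32 for ND3, and both rRNAs above it. KO replicate 2 was mixed, with 9 mRNAs above and 4 below the mean. In WT, all 13 mRNAs were below the mean in replicate 2 and above it in replicates 1 and 3. Both rRNAs were below the WT mean in replicates 1 and 2 and above it in replicate 3. The rRNAs thus lay on the side opposite to most mRNAs in KO replicates 1 and 3 and WT replicate 1. They lay on the same side as most mRNAs in KO replicate 2, by at most 0.0077, and in WT replicates 2 and 3.

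The number of mRNA reads per rRNA read summarises this. It was 4.48, 4.10 and 3.57 in KO and 4.21, 3.74 and 3.96 in WT, so that KO replicate 1 was highest and KO replicate 3 lowest of all 6. The complex I mRNAs had the wider range, with 1.76, 1.56 and 1.25 reads per rRNA read in KO and 1.56, 1.33 and 1.44 in WT. COX1 moved less, with 1.38, 1.34 and 1.22 in KO and 1.37, 1.265 and 1.33 in WT. With the block added, mRNA reads per rRNA read ran from 4.70 in KO replicate 3 to 5.85 in KO replicate 1. The most variable tested gene in KO was ND3, with a coefficient of variation of 23.9% there and 9.97% in WT. In WT it was ATP8, at 13.9% against 5.40% in KO, and ND6 had the smallest coefficient of the mRNAs there, at 3.86%. For 12 of the 16 tested genes the coefficient was larger in KO, and the share over all tested genes was not computed. Since most mRNAs moved together within a library, these 12 are not separate observations. The difference in spread was not tested.

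**Figure D5:**
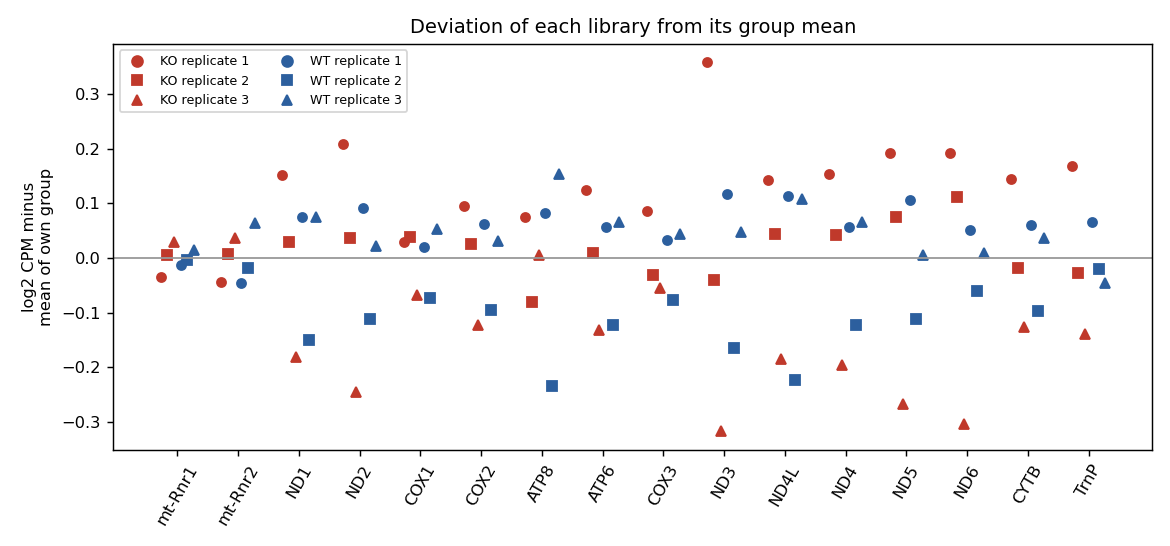
Log2 CPM of each library minus the mean of its own group (y axis) for the 16 tested genes in genome order; red points are KO and blue points WT. The rRNAs stay within 0.064 of 0, ND3 spreads most in KO and ATP8 in WT, and KO replicates 1 and 3 lie on opposite sides of 0 for 12 of the 13 mRNAs.

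The group comparison of several complex I mRNAs depended on single libraries. Without KO replicate 3, ND2, ND4L, ND5 and ND6 had log2 changes of 0.18 to 0.21 and an unadjusted p under 0.05 (edgeR). These were 4 of the 17 mitochondrial genes tested there, beside 5.5% of all genes in that fit, and 0 of the 17 passed after adjustment (smallest adjusted p among them 0.769). Without KO replicate 1 the estimates were -0.017 for ND2, -0.029 for ND5, -0.056 for ND6 and 0.040 for ND4L. Without WT replicate 2 they were 0.039, 0.017, 0.012 and 0.010 in the same order.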

How the data were processed

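Read counts per gene were deposited for the 6 input libraries without normalization. Per the file headers they were made by the authors with featureCounts 1.6.3 over exons, with the Ensembl 104 annotation and no option for strand, read pairs, multiple placements or overlapping genes. GRCm38, BWA 0.7.12, DESeq2 1.26.0, MACS2 2.1.0 and FastQC appear, without roles, in the submitters' processing notes. Coordinates are those of the count files. Only the mitochondrial positions were matched to GRCm38, so the genome build of the chromosome 1 positions was not checked. The fold ratio table deposited by the authors was used only to look up gene identifiers.

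The test was that of edgeR 4.0.16 in R 4.3.3 (TMM, filterByExpr, robust quasi-likelihood test, KO over WT) over all genes, with Benjamini-Hochberg adjustment at 0.05, checked on simulated data. A standard error is the log2 change over the root of its F statistic. Class shares were compared with exact permutation tests (SciPy 1.17.1). DESeq2 1.42.0 was an alternative. Replicates of a group differed by more than sampling noise (chi-square per degree of freedom 7.03 to 12.1).

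Names came from a RefSeq table (GRCm38.p6), in which all 37 genes had the same start and end. It pairs no Ensembl identifiers, so lists of ovary markers and of nuclear genes of mitochondrial RNA metabolism, written by symbol, were not analysed here. Genes given in full were both rRNAs, ND6, the 3 highest and 3 lowest mRNAs per base, the 5 highest tRNAs, tRNAs with a mean count under 10 and the 5 smallest p values. Members and lists were chosen with earlier results of these data known, and the chromosome 1 block was examined after seeing the counts.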

Additional observations from a re-analysis of the deposited data

Results flagged for a closer look

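Reads on nuclear genes outside the comparisons were flagged, because a signal stood there far above the 3 reads that a count of 0 allows. The chromosome 1 block, whose gene lengths and spacing match COX1 to ND4, held 24.84 reads per 100 mitochondrial reads on average over the 6 input libraries (24.6 to 25.0 per library). It made up 0.618% to 0.709% of counted reads.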

How the results depend on the processing

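The count of called mitochondrial genes was 0 in all 12 alternatives, and no mitochondrial gene came below an adjusted p of 0.556. With no low-count filter 35 of the 37 were tested, and TrnA, with 8 KO and 0 WT reads, had the smallest p (unadjusted 0.00875, adjusted 0.556, edgeR). The other 21 tRNAs had 33 to 70 reads per library together, which limits the precision of their values. Over all genes the count of 10 became 113 with no low-count filter, 38 when scaled to mitochondrial reads, 37 with DESeq2, and 5 to 37 with 1 library left out. The replicate block gave 20 calls. Deviations of same-numbered libraries from their group means had correlations of -0.071, -0.034 and -0.044. They thus showed no shared pattern, which does not decide whether the numbers mark pairs by design. No other call changed.

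The KO minus WT difference in mitochondrial share, 0.018 percentage points, was -0.017 with the TMM library size. The tRNA difference of -0.0048 was 0.00060 without TrnP, and the minus-strand difference of 0.084 was -0.0043 without ND6, both chosen after seeing the data. With the rRNA left out of the denominator the tRNA difference was -0.0063 without overlap of KO and WT (p = 0.1, exact permutation). The log2 change of mt-Rnr1 was 0.0042 when scaled to mitochondrial reads, and that of COX2 was -0.0058 with the chromosome 1 block added, also chosen after seeing the data. With 1 library left out, the ranges were -0.049 to 0.12 for the mitochondrial share, -1.22 to 0.59 for rRNA, -0.59 to 1.23 for mRNA, -0.036 to -0.0075 for the rRNA ratio and -0.033 to 0.29 for the minus strand. They were -0.019 to 0.0090 for the log2 change of mt-Rnr1, -0.042 to 0.069 for COX2, -0.086 to 0.054 for CYTB, -0.11 to 0.24 for ND3, -0.056 to 0.18 for ND6 and -0.017 to 0.21 for ND2. Causes were not tested.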

Other observations

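Of 14 ratios computed between mitochondrial genes or classes, 3 had KO and WT ranges that did not overlap. For the levels of single genes this held for 10.9% of all tested genes. The 3 ratios are given here after seeing the data, and as ratios they were not tested. TrnP, which lies on the opposite strand to CYTB with only TrnT between them, had 0.502, 0.490 and 0.489 reads per 100 CYTB reads in KO and 0.556, 0.584 and 0.522 in WT. ND4 over ND4L stood at 2.02, 2.00 and 1.98 per base in KO and 2.08, 2.31 and 2.096 in WT. With the chromosome 1 block added, that ratio was 1.271, 1.285 and 1.285 in KO and 1.32, 1.495 and 1.34 in WT. The mRNA genes had 194, 200.5 and 207 times the reads of the tRNA genes per base in KO and 183, 174 and 192 times in WT. With the block added these were 253.3, 262.0 and 272.5 in KO and 239.3, 229.2 and 252.8 in WT. KO replicate 1 and WT replicate 3 then lay close together. This ratio restates the tRNA share with rRNA left out of the denominator, given above (p = 0.1, exact permutation). TrnP held most of the tRNA reads, so this ratio and that of TrnP to CYTB are not separate observations.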
